A study of Mus musculus with 9 samples.

Results

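Immediate-early genes and their close relatives were measured across 3 kinds of sorted mouse lung macrophage. The set held 37 genes chosen by symbol, of 24346 symbols in all: 10 AP-1 and other bZIP subunits, 11 other transcription factors, 3 IER genes, 4 dual-specificity phosphatases, 3 RNA-binding ZFP36 proteins and 6 growth arrest and small GTPase genes. FPKM (fragments per kilobase of transcript, scaled for the depth of the library) reached 1 in at least 3 of the 9 samples for 36 of the 37, and these stood among 10686 genes tested. Egr3, a zinc finger factor of the EGR family, was the exception, with a range of 0.0203 to 0.714 FPKM.

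The study asked how alveolar macrophages (AMs), the phagocytes that live in the air spaces, change while a lung tumor grows near them. Ctrl-AM were AMs of C57BL/6 mice that received vehicle, Tumor-AM were AMs of C57BL/6 mice whose left lung carried LLC-tdTomato tumors, and Tumor-macrophage denotes the tumor-associated macrophages (TAMs) of such mice, all at postnatal week 10 by the labels. LLC is the Lewis lung carcinoma line of this strain, here with a red fluorescent protein, so 1 tumor line stands for lung cancer. Each group had 3 samples, which the methods describe as mice, with control and tumor-bearing animals bred separately. In every group the lungs were minced and digested with collagenase and dispase at a warm temperature, then CD45+ autofluorescent cells were sorted. AMs were taken as cells bearing Siglec-F and F4/80 (the product of Adgre1), and TAMs as Siglec-F- cells bearing F4/80 and CD11b.

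Immediate-early genes are transcribed within minutes of a stimulus, with no need for new protein. Kinase cascades, cyclic AMP and serum response factor switch them on, and their RNAs are short-lived. FOS and JUN proteins join through leucine zippers to form AP-1, which binds DNA and carries the signal to later genes, while DUSP phosphatases and ZFP36 proteins close the response by turning off kinases and by removing RNA. In macrophages the response follows microbial products, cytokines and attachment. Enzymatic digestion of tissue can raise the same genes, and all 3 populations were digested.

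RefSeq promoter windows (GRCm38.p6, the assembly also called mm10) matched 30 of the 36 members tested, and the 250 bases before the start were searched on both strands. Egr1, Fosl1, Klf10, Myc, Ier2 and Zfp36l2 had no match. The core TGACG of a cyclic AMP response element (CRE) was found in 16 of 30 members (53.3%) and in 31.8% of the 8195 tested genes with a window. The whole element, TGACGTCA, which contains the core on both strands, was in 3 members (Maff, Dusp1 and Btg2; 10.0%) and 3.12% of all. The CArG box bound by serum response factor was in 3 (Egr2, Dusp5 and Zfp36; 10.0%) and 1.39% of all, the kappaB consensus in 5 (16.7%) and 5.34% of all, and the AP-1 site TGANTCA in 1 (Zfp36l1; 3.33%) and 5.47% of all. The core was chosen after the windows had been read, and a match is a description of the letters, not a bound site. Nr4a1, Nr4a2 and Nr4a3 each held 4 cores, more than any other member.

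In the sequences below, TGACG or its reverse complement and kappaB matches are in capitals. The windows of 5 selected members are shown 5′ to 3′, each ending at the last base before the RefSeq start. They lie at chr12:85473640-85473889 (Fos, plus strand), chr8:84978749-84978998 (Junb, minus strand), chr15:101266596-101266845 (Nr4a1, plus strand), chr2:57124004-57124253 (Nr4a2, minus strand) and chr17:35821463-35821683 (Ier3, plus strand). None overlapped an exon of its gene in GENCODE vM21. The Ier3 window was ended 29 bases earlier for that reason, and the Nr4a1 window lies inside the span of longer annotated transcripts. Nr4a1 and Nr4a2 show 4 TGACG cores each, and Fos shows 2 cores and a kappaB match. Junb shows 1 core, and Ier3 shows a kappaB match alone. All 5 windows thus hold a match, which was not so for every member. Gadd45a and Gadd45b rose in Tumor-AM, and their windows held no match to any motif searched. Fos passed an adjusted p of 0.05 in no comparison of the main fit. The core was in 7 of the 10 raised members with a window and in 9 of the 20 not called. A kappaB match was in 2 and 3 of them.
Fos: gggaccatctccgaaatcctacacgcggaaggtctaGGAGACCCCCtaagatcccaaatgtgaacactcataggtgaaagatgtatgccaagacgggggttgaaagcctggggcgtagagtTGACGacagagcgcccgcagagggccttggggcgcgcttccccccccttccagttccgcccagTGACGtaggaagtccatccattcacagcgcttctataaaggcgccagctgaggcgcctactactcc
Junb: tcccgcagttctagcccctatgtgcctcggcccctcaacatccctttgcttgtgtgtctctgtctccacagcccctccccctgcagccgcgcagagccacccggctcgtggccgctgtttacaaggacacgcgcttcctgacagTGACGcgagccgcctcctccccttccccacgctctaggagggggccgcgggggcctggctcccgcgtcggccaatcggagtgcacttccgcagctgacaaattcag
Nr4a1: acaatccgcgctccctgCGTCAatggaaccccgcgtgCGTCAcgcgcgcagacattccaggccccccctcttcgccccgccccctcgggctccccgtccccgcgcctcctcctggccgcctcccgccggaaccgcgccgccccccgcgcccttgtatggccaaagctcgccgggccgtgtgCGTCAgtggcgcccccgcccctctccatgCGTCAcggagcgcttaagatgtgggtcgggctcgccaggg
Nr4a2: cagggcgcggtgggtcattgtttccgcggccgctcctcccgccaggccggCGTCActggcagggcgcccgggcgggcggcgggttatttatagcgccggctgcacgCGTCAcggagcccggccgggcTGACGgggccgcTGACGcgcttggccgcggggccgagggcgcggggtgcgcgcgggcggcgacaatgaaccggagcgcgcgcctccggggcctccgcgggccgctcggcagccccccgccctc
Ier3: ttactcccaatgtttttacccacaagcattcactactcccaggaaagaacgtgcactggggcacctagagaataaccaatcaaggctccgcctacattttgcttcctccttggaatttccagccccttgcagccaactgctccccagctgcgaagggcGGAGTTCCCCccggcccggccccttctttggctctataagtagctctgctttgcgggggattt

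The members also shared features of structure. Their median gene span was 5073 bases against 22744 for the other genes tested with an annotation, and their median exon number was 3 against 9. A single exon made up 6 of the 36 (Jun, Junb, Jund, Ier2, Ier5 and Rhob; 16.7%) against 1.79% of the others. The AU-rich nonamer TTATTTATT, an RNA element tied to rapid decay, was in the 3′ untranslated region of 7 members (19.4%: Fos, Fosl2, Maff, Dusp1, Zfp36, Zfp36l1 and Zfp36l2) against 6.73% of the others.

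Markers of the sorted cells were read first. The summed FPKM of 12 AM markers was 31776 to 37057 in Ctrl-AM, 26710.3 to 43073 in Tumor-AM and 271 to 572 in Tumor-macrophage. That of 11 TAM and monocyte markers was 164 to 184, 215 to 267 and 15414 to 16031. Chil3 gave most of the AM sums in both AM groups, with means of 25739 and 26233 FPKM. Gene by gene, 3 of the 12 AM markers were lower in Tumor-AM than in Ctrl-AM and 0 were higher (limma, adjusted p under 0.05). That was 25% against 10.3% of all genes, with a median log2 change of -0.50 for these markers. Adgre1, which encodes a sort marker of AMs and TAMs alike, had 131 to 145 FPKM in Ctrl-AM, within the TAM and monocyte sum. Estimated depth was 9800000 to 12400000 reads per library. For the members, single libraries stood apart from their group. Tumor-macrophage 2 had the lowest value of its group in 30 of 36 members (83.3%, against 36.2% of all genes tested) and the highest in 0, and its median deviation from the group mean was -0.20 on the log2 scale. Tumor-AM 2 was lowest in 22 (61.1%, against 34.9% of all genes) and Ctrl-AM 1 in 20 (55.6%, against 35.4%). Results are therefore given also without these libraries wherever a call depended on them. Tumor-AM 2 also differed in AM markers from Tumor-AM 1 and 3. Marco had 329 FPKM in it against 60.2 and 95.3, Chil3 36468 against 20425 and 21806, and Car4 1169 against 554 and 658. Pparg, Ear1, Ear2 and Itgax, in contrast, were lowest in it.

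**Figure D1:**
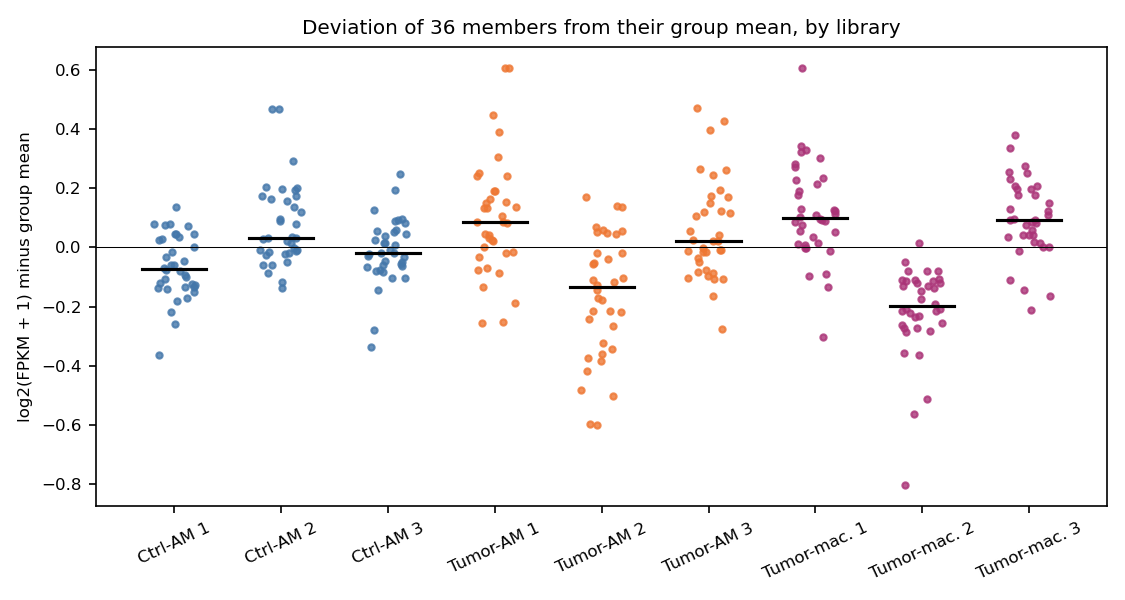
Deviation of each of the 36 tested members from its group mean, as log2(FPKM + 1), for the 9 libraries (Tumor-mac. is Tumor-macrophage), with each point a gene and each black line the median of a library. Tumor-macrophage 2 lies lowest, with a median of -0.20, and Tumor-AM 2 follows with -0.13.

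The members covered a wide range of levels. Fos, Junb, Atf3, Dusp1 and Zfp36 had at least 100 FPKM in every sample, and Dusp1, a phosphatase that inactivates p38 and JNK kinases, reached a mean of 559 ± 42.9 (SD, n = 3) FPKM already in Ctrl-AM. At the other end, Fosl1, Dusp2, Nr4a3, Gadd45a and Zfp36l1 had Ctrl-AM means of 2.06, 3.06, 3.5, 3.63 and 4.11 FPKM. The change of such low genes is understated on the log2(FPKM + 1) scale used for all tests.

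Next, Tumor-AM were compared with Ctrl-AM. Of the 36 members, 11 were higher in Tumor-AM and 0 were lower (limma, Benjamini-Hochberg adjusted p under 0.05), or 30.6%, against a background of 10.3% of all genes tested called, 7.11% higher and 3.18% lower. On values rescaled to TPM, which give every sample the same sum, the calls over all genes turned from 760 higher and 340 lower to 475 higher and 824 lower, and those of the members to 9 higher and 1 lower. With the filter at 5 FPKM, 31.4% of the members were called, against 14% of all genes. At an unadjusted p under 0.05 there were 17 members, or 47.2%, against 24.6% of all genes. Without Ctrl-AM 1 or without Ctrl-AM 3 the count was 8 (22.2%), where the share of all genes called was 5.05% and 5.15%. Without both Tumor-AM 2 and Tumor-macrophage 2 it was 15 (41.7%, against 10.4% of all genes), all of them higher. These libraries were picked because the members were low in them, so the larger count adds no support. The values of the groups did not overlap for 15 of the 36 members (41.7%), 14 higher and 1 lower, against 32.3% of all genes tested. A lack of overlap was therefore common and says little about a single member. The median log2 change of the members was 0.29 and that of all genes was 0.014. Ier3, Nr4a2, Gadd45a and Gadd45b had the largest log2 changes (2.02, 1.94, 1.52 and 1.22). The DUSP and ZFP36 groups, of 4 and 3 genes, held no call. At the 10.3% share of all genes, lists so short may hold none.

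**Figure D2:**
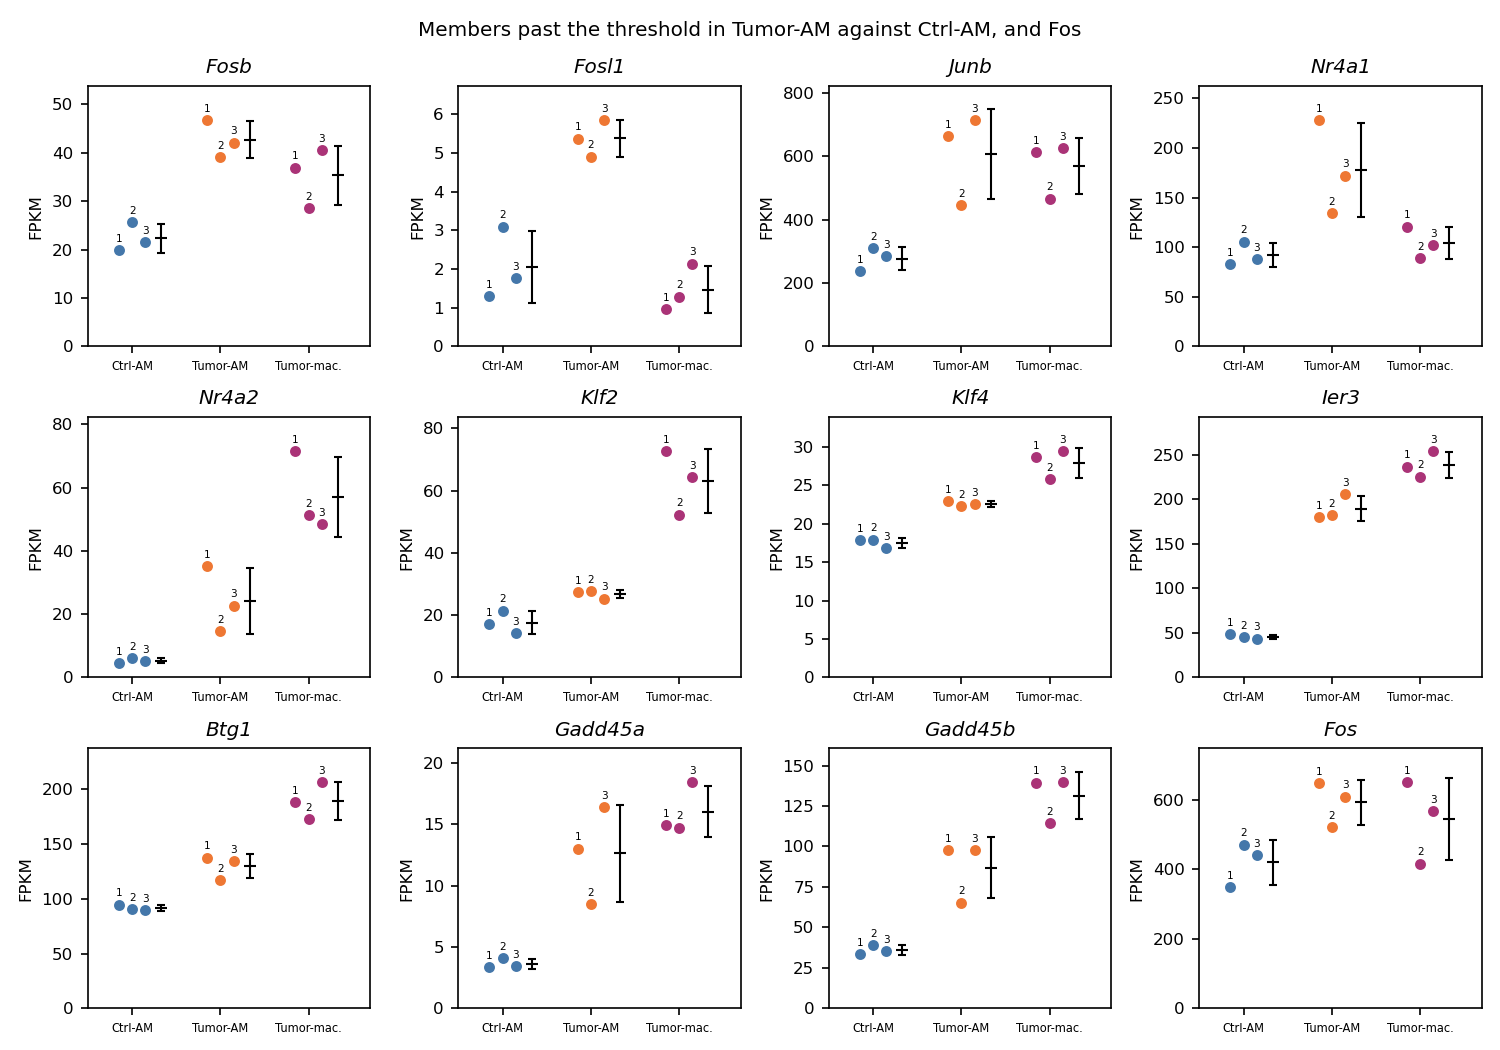
FPKM of the 11 members past the threshold in Tumor-AM against Ctrl-AM and of Fos in each of the 9 samples (Tumor-mac. is Tumor-macrophage), with points numbered by replicate and black bars giving the mean and SD of 3 samples. Ier3 sits between 43.6 and 48.3 in Ctrl-AM and between 180.1 and 206 in Tumor-AM, whereas Nr4a1 and Fosl1 are highest in Tumor-AM of the 3 populations.

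Of the 10 AP-1 and other bZIP subunits, 3 rose in Tumor-AM. Junb, a JUN family subunit of AP-1, had 237, 311 and 285 FPKM in the Ctrl-AM samples, 663, 445 and 715 in those of Tumor-AM and 614, 467 and 625 in TAMs. All Tumor-AM samples lay above all Ctrl-AM samples, with Tumor-AM 2 the lowest of its group (log2 change 1.11 ± 0.18 (SE), adjusted p = 0.00434). Fosb, a FOS family subunit, had 19.9, 25.7 and 21.5 FPKM in the Ctrl-AM samples, 46.8, 39.1 and 42.1 in those of Tumor-AM and 36.9, 28.6 and 40.5 in TAMs. All Tumor-AM samples lay above Ctrl-AM, and Tumor-AM 2 alone lay within the TAM range, below the other Tumor-AM samples (log2 change 0.91 ± 0.14 (SE), adjusted p = 0.0029). Fosl1, which encodes the FOS-related subunit FRA-1, had 1.30, 3.10 and 1.76 FPKM in the Ctrl-AM samples, 5.37, 4.90 and 5.85 in those of Tumor-AM and 0.96, 1.29 and 2.14 in TAMs. The gene was low throughout and highest in the 3 Tumor-AM samples (log2 change 1.10 ± 0.23 (SE), adjusted p = 0.0132). Its call was lost without Ctrl-AM 1 (adjusted p = 0.0549 with limma) or without Ctrl-AM 3 (0.0547). Fosl1 overlaps exons of Ccdc85b on the other strand, whose FPKM was 3.31 to 4.35 in Ctrl-AM, 6.25 to 6.99 in Tumor-AM and 2.91 to 3.36 in TAMs, and since SMART-Seq HT libraries do not mark strand their reads cannot be told apart.

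Fos itself, the founding FOS subunit, had 348, 471 and 442 FPKM in the Ctrl-AM samples, 649, 522 and 609 in those of Tumor-AM and 651, 417 and 568 in TAMs. Tumor-AM did not overlap Ctrl-AM, but the change missed the threshold (log2 change 0.50 ± 0.17 (SE), adjusted p = 0.0858), and it passed once Tumor-macrophage 2 was left out of the shared estimate of spread (adjusted p = 0.0305). Jun, its usual partner, had 49.4, 51.2 and 50.8 FPKM in the Ctrl-AM samples, 56.7, 57.1 and 51.0 in those of Tumor-AM and 98.1, 67.3 and 72.4 in TAMs, so that 2 of the 3 Tumor-AM samples lay above Ctrl-AM and the change was not called (log2 change 0.12 ± 0.12 (SE), adjusted p = 0.615). Mafk, a small MAF protein that lacks an activation domain, was higher in all Tumor-AM samples (50.2 to 62.2 against 40.1 to 46.7 FPKM) and just missed the threshold (log2 change 0.34 ± 0.098 (SE), adjusted p = 0.0515), with an adjusted p of 0.0355 without Tumor-AM 3 and 0.0451 without Tumor-macrophage 2. Fosl2, another FOS-related subunit, did not pass (log2 change 0.33 ± 0.20 (SE), adjusted p = 0.351), and without Tumor-AM 2 its log2 change was 0.58 (adjusted p = 0.0385). Jund, Atf3 and Maff overlapped between the groups, with log2 changes of -0.04, 0.13 and 0.28.

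Of the 10 other transcription factors tested, 4 were called, and they came from the NR4A and KLF families. Nr4a2, an orphan nuclear receptor regulated mainly by its own transcription, had 4.50, 6.08 and 5.11 FPKM in the Ctrl-AM samples, 35.2, 14.7 and 22.7 in those of Tumor-AM and 71.6, 51.3 and 48.4 in TAMs. All Tumor-AM samples lay above Ctrl-AM and below TAMs, with a wide spread among them (log2 change 1.94 ± 0.26 (SE), adjusted p = 0.00171). Nr4a1, a receptor of the same family known to restrain inflammatory genes in macrophages, had 83.1, 106 and 87.8 FPKM in the Ctrl-AM samples, 228, 134 and 172 in those of Tumor-AM and 121, 88.7 and 102 in TAMs. Tumor-AM stood above both other populations (log2 change 0.92 ± 0.18 (SE), adjusted p = 0.0107). The third family member, Nr4a3, had 3.26, 3.43 and 3.81 FPKM in the Ctrl-AM samples, 13.1, 5.12 and 8.17 in those of Tumor-AM and 21.2, 7.36 and 15.7 in TAMs. The groups did not overlap and the change missed the threshold (log2 change 1.04 ± 0.35 (SE), adjusted p = 0.0937), with an adjusted p of 0.0481 without Tumor-AM 2 and 0.0308 without Tumor-macrophage 2. In each NR4A gene Tumor-AM 1 was the highest and Tumor-AM 2 the lowest of the group.

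Klf2, a zinc finger factor that holds back inflammatory activation of macrophages, had 17.2, 21.5 and 14.1 FPKM in the Ctrl-AM samples, 27.3, 27.6 and 25.3 in those of Tumor-AM and 72.7, 52.3 and 64.4 in TAMs (log2 change 0.60 ± 0.15 (SE), adjusted p = 0.0328). Klf4, its relative that also takes part in monocyte maturation, had 17.9, 17.9 and 16.8 FPKM in the Ctrl-AM samples, 22.9, 22.2 and 22.5 in those of Tumor-AM and 28.7, 25.8 and 29.5 in TAMs (log2 change 0.35 ± 0.079 (SE), adjusted p = 0.0209). Neither overlapped between Ctrl-AM and Tumor-AM, and both calls were close to the threshold. For Klf2 the adjusted p was 0.0996 without Ctrl-AM 1, 0.115 without Ctrl-AM 3, and 0.085, 0.082 and 0.0665 without Tumor-AM 1, 2 and 3. For Klf4 it was 0.0642, 0.0536 and 0.0889 without Ctrl-AM 1, 2 and 3, and 0.0636 and 0.0612 without Tumor-AM 1 and 3. Rescaling to TPM ended both calls (log2 change 0.47, adjusted p = 0.057 for Klf2 and log2 change 0.22, adjusted p = 0.0996 for Klf4), and with no filter on low values or an untrended prior variance Klf2 had an adjusted p of 0.0804 or 0.0501. Egr1, the zinc finger factor most used as a marker of recent stimulation, had 13.6 to 18.1 FPKM in Ctrl-AM and 14.2 to 19.7 in Tumor-AM (log2 change 0.19 ± 0.22 (SE), adjusted p = 0.653). Egr2, Klf6, Klf10 and Myc were not called either, with log2 changes of 0.06, 0.16, 0.10 and -0.33.

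Ier3, a small protein that limits stress-induced cell death, had the lowest adjusted p of the members in this comparison. It had 48.3, 45.5 and 43.6 FPKM in the Ctrl-AM samples, 180.1, 182 and 206 in those of Tumor-AM and 237, 226 and 254 in TAMs. All 3 Tumor-AM samples lay far above Ctrl-AM, with little spread inside either group (log2 change 2.02 ± 0.078 (SE), adjusted p = 1.22e-06). Ier2, a short nuclear protein of the same naming family, had 75.4 to 84.9 FPKM in Ctrl-AM and 82.8 to 117 in Tumor-AM (log2 change 0.37 ± 0.15 (SE), adjusted p = 0.153), and without Tumor-AM 2 its log2 change was 0.53 (adjusted p = 0.0311). Ier5 was the member whose Tumor-AM samples all lay below Ctrl-AM, at 41.5 to 49.9 against 52.2 to 66.5 FPKM, and it did not pass (log2 change -0.34 ± 0.11 (SE), adjusted p = 0.0833).

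Of the 6 growth arrest and small GTPase genes, 3 rose. Gadd45a, a stress sensor that binds cell cycle and kinase partners, had 3.37, 4.07 and 3.44 FPKM in the Ctrl-AM samples, 13.0, 8.48 and 16.4 in those of Tumor-AM and 14.9, 14.7 and 18.4 in TAMs (log2 change 1.52 ± 0.19 (SE), adjusted p = 0.00134). Gadd45b, its relative that binds the kinase upstream of p38 and JNK, had 33.5, 39.2 and 35.6 FPKM in the Ctrl-AM samples, 97.8, 65.3 and 97.9 in those of Tumor-AM and 139, 114 and 139.8 in TAMs (log2 change 1.22 ± 0.15 (SE), adjusted p = 0.00109). Tumor-AM 2 was the lowest of its group for both and still lay above every Ctrl-AM sample. Gadd45a overlaps E230016M11Rik on the other strand, whose FPKM was 0.505 to 0.838 in Ctrl-AM, 1.18 to 2.86 in Tumor-AM and 2.53 to 3.25 in TAMs. Btg1, an antiproliferative protein linked to RNA deadenylation, had 94.6, 90.7 and 89.6 FPKM in the Ctrl-AM samples, 137, 117 and 134 in those of Tumor-AM and 188, 172 and 206 in TAMs (log2 change 0.49 ± 0.086 (SE), adjusted p = 0.00595). Gadd45g, Btg2 and Rhob overlapped between the groups, with log2 changes of -0.15, -0.07 and 0.30.

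None of the 7 feedback genes was called, beside 10.3% of all genes tested. At that share a list of 7 may hold no call, so this does not set them apart. Dusp1 had 511, 593 and 573 FPKM in the Ctrl-AM samples, 592, 412 and 451 in those of Tumor-AM and 733, 475 and 645 in TAMs (log2 change -0.22 ± 0.17 (SE), adjusted p = 0.471), with 2 of 3 Tumor-AM samples below all Ctrl-AM samples. Log2 changes were 0.43 for Dusp2, -0.07 for Dusp5 and -0.13 for Dusp6, and 0.10, -0.08 and -0.05 for Zfp36, Zfp36l1 and Zfp36l2. None had groups that did not overlap or an unadjusted p under 0.05, where 32.3% and 24.6% of all genes tested did.

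Next, TAMs were compared with Tumor-AM. Of the 36 members, 15 were higher and 11 lower in Tumor-macrophage (limma, adjusted p under 0.05), 72.2% in all, against a background of 48.6% of all genes tested, 24.2% higher and 24.4% lower. The median log2 change of the members was 0.31 and that of all genes 0.0012. Against Ctrl-AM, TAMs were higher in 21 members and lower in 8, 80.6% in all, with a background of 54.8%, 27.7% higher and 27.1% lower, and medians of 0.54 for the members and -0.0082 for all genes. With TPM the calls over all genes against Ctrl-AM turned from 2960 higher and 2900 lower to 2130 higher and 4409 lower, and those of the members to 18 higher and 8 lower. With the filter at 5 FPKM, 71.4% of the members were called against Tumor-AM and 82.9% against Ctrl-AM, where the shares of all genes were 54.1% and 59.4%. The groups did not overlap for 25 and 29 of the 36 members in these comparisons, and for 55.3% and 62.3% of all genes tested. Without both Tumor-AM 2 and Tumor-macrophage 2 the counts were 18 higher and 12 lower, and 22 higher and 8 lower. These were 83.3% of the members in each, against 41.6% and 52.3% of all genes. That omission was chosen after the member values had been seen. The comparisons share samples with each other and with the first comparison, so they are read side by side and not as separate evidence.

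**Figure D3:**
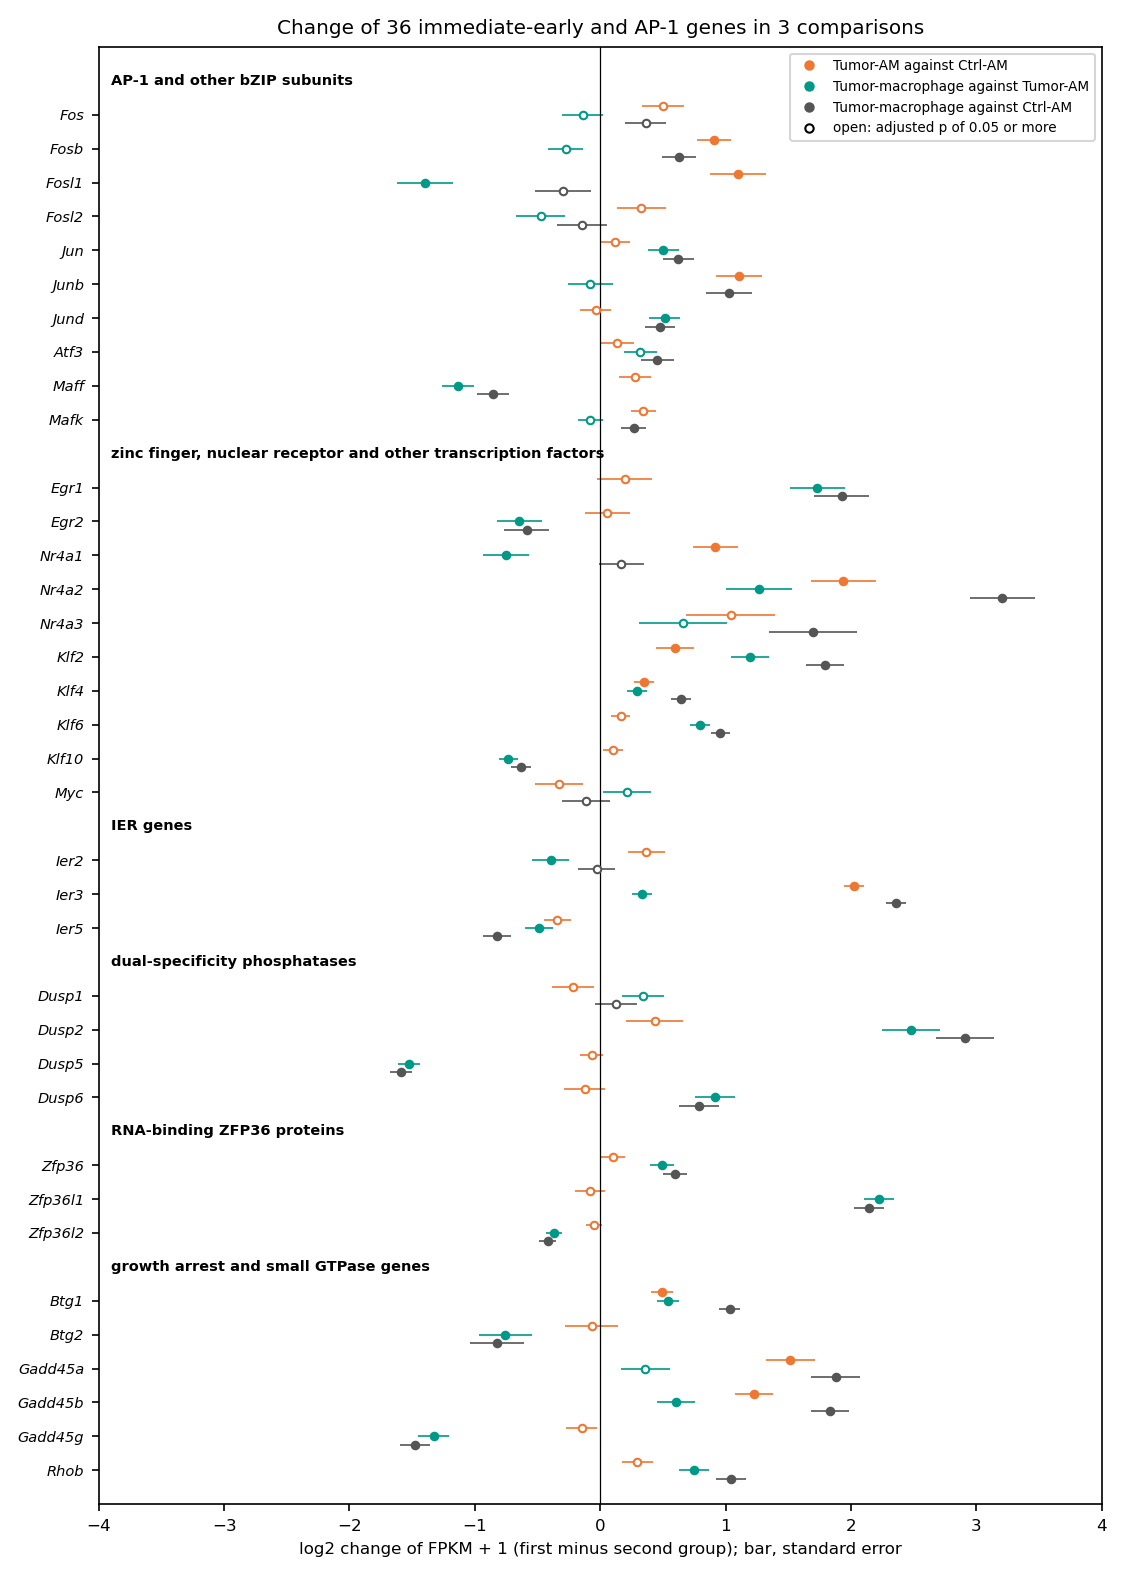
Log2 change of FPKM + 1 (horizontal axis, bars are SE) for the 36 tested members, grouped by role, in 3 comparisons, with filled points past an adjusted p of 0.05. Filled points of Tumor-AM against Ctrl-AM lie to the right of 0 for 11 members, whereas TAMs show large changes on both sides, from 3.21 for Nr4a2 to -1.59 for Dusp5.

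Dusp2 and Zfp36l1 were the members that rose most in TAMs over Tumor-AM. Dusp2, a nuclear phosphatase of activated immune cells, had 2.60, 4.45 and 2.13 FPKM in the Ctrl-AM samples, 3.68, 3.51 and 6.16 in those of Tumor-AM and 32.9, 24.7 and 29.0 in TAMs. TAM values were several times those of both AM groups, which overlapped each other (log2 change 2.48 ± 0.23 (SE), adjusted p = 7.02e-06). Against Ctrl-AM it rose too (log2 change 2.91 ± 0.23 (SE), adjusted p = 1.59e-06). Zfp36l1, which speeds the decay of AU-rich RNAs, had 3.69, 4.21 and 4.42 FPKM in the Ctrl-AM samples, 3.55, 3.71 and 4.26 in those of Tumor-AM and 21.5, 19.0 and 24.5 in TAMs (log2 change 2.22 ± 0.12 (SE), adjusted p = 1.11e-07). Against Ctrl-AM it rose as well (log2 change 2.14 ± 0.12 (SE), adjusted p = 1.06e-07). Both had low and overlapping levels in AMs.

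Egr1 had 13.6, 13.8 and 18.1 FPKM in the Ctrl-AM samples, 18.7, 19.7 and 14.2 in those of Tumor-AM and 75.6, 40.3 and 70.6 in TAMs. Even Tumor-macrophage 2, the lowest TAM library, lay above every AM sample (log2 change 1.73 ± 0.22 (SE), adjusted p = 7.95e-05), and the same held against Ctrl-AM (log2 change 1.93 ± 0.22 (SE), adjusted p = 3.02e-05). Nr4a2, whose values are given above, rose in TAMs over Tumor-AM (log2 change 1.27 ± 0.26 (SE), adjusted p = 0.00221) and most of all members over Ctrl-AM (log2 change 3.21 ± 0.26 (SE), adjusted p = 1.97e-06), a ratio of means of 10.9. Klf2 completed the 5 largest increases over Tumor-AM (log2 change 1.20 ± 0.15 (SE), adjusted p = 7.06e-05) and Ier3 those over Ctrl-AM (log2 change 2.36 ± 0.078 (SE), adjusted p = 2.25e-09). For Ier3 most of that distance was already present in Tumor-AM, whose mean was 79.3% of the TAM mean, and the step from Tumor-AM to TAMs was small (log2 change 0.33 ± 0.078 (SE), adjusted p = 0.00472).

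Dusp5 fell most in TAMs in both comparisons, and Gadd45g and Maff were among the 5 largest decreases in each. Dusp5, a nuclear phosphatase that acts on ERK, had 116, 119 and 125 FPKM in the Ctrl-AM samples, 121, 106 and 116 in those of Tumor-AM and 36.5, 36.9 and 44.3 in TAMs. Both AM groups lay near each other and far above TAMs (log2 change -1.52 ± 0.088 (SE), adjusted p = 1.74e-07 against Tumor-AM and log2 change -1.59 ± 0.088 (SE), adjusted p = 9.34e-08 against Ctrl-AM). Gadd45g, the third GADD45 gene, had 141, 136 and 137 FPKM in the Ctrl-AM samples, 114, 123 and 138 in those of Tumor-AM and 60.6, 44.4 and 43.5 in TAMs. It was lower in TAMs (log2 change -1.33 ± 0.12 (SE), adjusted p = 6.2e-06 against Tumor-AM and log2 change -1.48 ± 0.12 (SE), adjusted p = 2.14e-06 against Ctrl-AM), the opposite direction to Gadd45a and Gadd45b in the comparison with Ctrl-AM. Maff, a small MAF protein, had 7.44, 8.48 and 9.93 FPKM in the Ctrl-AM samples, 12.0, 10.1 and 9.77 in those of Tumor-AM and 4.67, 3.77 and 4.44 in TAMs (log2 change -1.13 ± 0.13 (SE), adjusted p = 3.41e-05 against Tumor-AM and log2 change -0.86 ± 0.13 (SE), adjusted p = 0.000228 against Ctrl-AM).

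Fosl1 was lower in TAMs than in Tumor-AM (log2 change -1.40 ± 0.23 (SE), adjusted p = 0.000426), and its change against Ctrl-AM was not called (log2 change -0.30 ± 0.23 (SE), adjusted p = 0.289). Btg2, an antiproliferative relative of Btg1, had 72.7, 89.4 and 79.0 FPKM in the Ctrl-AM samples, 87.3, 59.4 and 86.1 in those of Tumor-AM and 50.8, 31.2 and 56.8 in TAMs. It was lower in TAMs than in Tumor-AM (log2 change -0.76 ± 0.21 (SE), adjusted p = 0.013) and in Ctrl-AM (log2 change -0.82 ± 0.21 (SE), adjusted p = 0.00736), and without Tumor-macrophage 2 the change against Tumor-AM was -0.50. Ier5, which takes part in the heat shock response, had 55.5, 66.5 and 52.2 FPKM in the Ctrl-AM samples, 49.9, 41.5 and 45.1 in those of Tumor-AM and 35.2, 32.5 and 29.0 in TAMs, and fell in TAMs as well (log2 change -0.48 ± 0.11 (SE), adjusted p = 0.00426 against Tumor-AM and log2 change -0.83 ± 0.11 (SE), adjusted p = 9.82e-05 against Ctrl-AM). Its levels declined in order from Ctrl-AM through Tumor-AM to TAMs with no overlap at either step.

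Within the AP-1 group the subunits parted. Jun and Jund rose in TAMs over Tumor-AM (log2 changes of 0.50 and 0.51), Fosl1 and Maff fell, and Fos, Fosb, Fosl2, Junb, Atf3 and Mafk were not called (-0.14, -0.28, -0.48, -0.08, 0.32 and -0.08). The mean of Junb in Tumor-AM was 107% of the TAM mean, that of Fosb 121%, that of Nr4a1 172% and that of Fosl1 368%. Leaving out Tumor-AM 1 or Tumor-macrophage 2 brought Atf3 past the threshold (adjusted p = 0.0146 and 0.0192), as it did Dusp1 (0.0299 and 0.0149) and Nr4a3 (0.0483 and 0.014). Fosl2 passed without Tumor-AM 2 (adjusted p = 0.00228) or Tumor-macrophage 3 (0.0462) and with TPM (0.0364), Fosb with TPM (0.0397), and Gadd45a and Myc without Tumor-AM 3 (0.0296 and 0.0291). Against Ctrl-AM, Fos passed without Tumor-macrophage 2 (log2 change 0.54, adjusted p = 0.00873).

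The remaining members were called in 1 or both of these comparisons with smaller changes. Over Tumor-AM, Rhob, a small GTPase, rose by 0.75 on the log2 scale, Klf6 by 0.80, Dusp6 by 0.91, Gadd45b by 0.61, Btg1 by 0.54, Zfp36 by 0.49 and Klf4 by 0.30. In the other direction Nr4a1 fell by 0.75, Klf10 by 0.73, Egr2 by 0.64, Ier2 by 0.39 and Zfp36l2 by 0.37. The Egr2 change was -0.42 without Tumor-AM 1 and lost its call without Tumor-macrophage 2 (adjusted p = 0.0512), and against Ctrl-AM it did so without Ctrl-AM 1, Ctrl-AM 2 or Tumor-macrophage 2 (0.0535, 0.0513 and 0.0695). The Ier2 samples overlapped, and its adjusted p of 0.0466 rose to 0.0591, 0.0597 and 0.0636 without Ctrl-AM 1, 2 and 3, to 0.144 and 0.152 without Tumor-AM 1 and 3, and to 0.156 and 0.097 without Tumor-macrophage 2 and 3. The Ier2 call was also lost with median-ratio scaling (0.0567), quantile normalization (0.0977), no filter on low values (0.0979), an untrended prior variance (0.0669) and a fit of the 2 groups alone (0.083). Against Ctrl-AM the other 16 increases past the threshold ran from 0.27 (Mafk) to 1.88 (Gadd45a) and the other 3 decreases were -0.63 for Klf10, -0.59 for Egr2 and -0.42 for Zfp36l2. Atf3, Mafk and Nr4a3 were called only against Ctrl-AM (log2 changes of 0.45, 0.27 and 1.70). The call of Atf3 was lost without Ctrl-AM 3 or Tumor-macrophage 3 (adjusted p = 0.0522 and 0.0529), and that of Mafk without Ctrl-AM 2, Ctrl-AM 3, Tumor-AM 1, Tumor-macrophage 1 or Tumor-macrophage 3 (0.152, 0.0606, 0.0525, 0.122 and 0.0917). With TPM the changes against Ctrl-AM of Mafk (0.034, adjusted p = 0.786), Atf3 (0.22, 0.175) and Jund (0.24, 0.0696) lost their call, as did that of Klf4 against Tumor-AM (0.20, 0.0531). Mafk lost it also with no filter (0.0622) or an untrended prior variance (0.0635), and Atf3 with quantile normalization (0.0507).

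Read across the comparisons, the members fell into a few patterns, counted among the members only. The share of all genes with each pattern was not computed. Of all genes, 48.6% were called in TAMs against Tumor-AM and 54.8% in TAMs against Ctrl-AM, so patterns set by TAMs are common. A group of 6 (Btg1, Gadd45b, Ier3, Klf2, Klf4 and Nr4a2) rose from Ctrl-AM to Tumor-AM and again from Tumor-AM to TAMs. The first of these calls was close to the threshold for Klf2 and Klf4. Fosb, Gadd45a and Junb rose in Tumor-AM and were not called between Tumor-AM and TAMs. Fosl1 and Nr4a1 were highest in Tumor-AM, past the threshold against both other populations. A group of 9 (Dusp2, Dusp6, Egr1, Jun, Jund, Klf6, Rhob, Zfp36 and Zfp36l1) were higher in TAMs than in either AM group, and 8 (Btg2, Dusp5, Egr2, Gadd45g, Ier5, Klf10, Maff and Zfp36l2) were lower, with no call between the AM groups. Dusp1, Fos, Fosl2 and Myc were not called anywhere. Markers of TAMs and monocytes moved beside them. Of the 11 such markers, 8 rose and 0 fell from Ctrl-AM to Tumor-AM (72.7% against 10.3% of all genes, median log2 change 0.97), among them the complement genes C1qa, C1qb and C1qc at 3.75, 4.28 and 3.75 times the Ctrl-AM mean. Means of the 11 markers ran from 0.451% (C1qa) to 30.5% (Adgre1) of the TAM mean in Tumor-AM and from 0.12% to 35.3% (the same genes) in Ctrl-AM. For Nr4a2 these shares of the TAM mean were 9.16% in Ctrl-AM and 42.4% in Tumor-AM, for Gadd45b 27.5% and 66.3%, and for Gadd45a 22.6% and 78.7%. The part of TAMs among the sorted AMs in the changes of the members was not tested.

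The genes around the members were examined by list, beside the 10.3%, 48.6% and 54.8% of all genes called in Tumor-AM against Ctrl-AM, TAMs against Tumor-AM and TAMs against Ctrl-AM. Of the MAPK and SRF inputs 7.69%, 50% and 69.2% were called, of the other bZIP genes 30%, 85% and 85%, and of the other phosphatases and feedback genes 11.1%, 55.6% and 66.7%. Their median log2 changes in Tumor-AM were 0.13, 0.068 and 0.0047, against 0.014 for all genes. Of 26 tested kinases and factors that feed the response (MAPK and SRF inputs), 2 rose in Tumor-AM, Crem (log2 change 1.60 ± 0.28 (SE), adjusted p = 0.00603) and Map2k4 (log2 change 0.39 ± 0.11 (SE), adjusted p = 0.0467). Crem encodes a factor that binds CREs and, in a short form, represses them. In TAMs 6 of the 26 were higher and 7 lower than in Tumor-AM, among them Mapk3, which encodes ERK1 (log2 change -1.42) and Elk3, a partner of serum response factor (1.16). Against Ctrl-AM 11 were higher and 7 lower. Among 20 other bZIP genes, 3 rose and 3 fell in Tumor-AM, and Nfil3 went from 99.7 to 193 FPKM in the mean (log2 change 0.93 ± 0.15 (SE), adjusted p = 0.00361). In TAMs 12 of the 20 were higher and 5 lower than in Tumor-AM. Against Ctrl-AM the counts were also 12 and 5. Of 9 other MAPK phosphatases and RAS-ERK feedback genes, Dusp10 alone was called in Tumor-AM (log2 change 0.57 ± 0.12 (SE), adjusted p = 0.0134). In TAMs 4 of the 9 rose and 1 fell against Tumor-AM, with a log2 change of 2.53 for Spred1 and -1.80 for Spry1, and 4 rose and 2 fell against Ctrl-AM.

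Because digestion of tissue can raise the members, 2 further lists were read beside them, of heat shock genes and of rapid NF-kappaB and cytokine genes. Some genes of these kinds can respond to digestion, but this was not checked for each gene listed. The lists were written with earlier results of these data known. Of the heat shock genes 14.3%, 50% and 50% were called in the 3 comparisons, in the same order, and of the rapid NF-kappaB and cytokine genes 61.1%, 83.3% and 94.4%, beside the shares of all genes above. Of 14 heat shock genes, 1 rose in Tumor-AM (Bag3, log2 change 0.60 ± 0.14 (SE), adjusted p = 0.0218) and 1 fell (Hsp90aa1, log2 change -0.27 ± 0.069 (SE), adjusted p = 0.0357), and their median change was -0.18. In TAMs 7 of the 14 rose and 0 fell against Tumor-AM, among them Dnajb4 (1.51), and 7 rose and 0 fell against Ctrl-AM. Hspa1a (2.25) and Hspa1b (1.65) were also higher in TAMs than in Tumor-AM, and as near-identical copies their shares are uncertain. Of 18 rapid NF-kappaB and cytokine genes, 11 rose and 0 fell in Tumor-AM, with a median of 0.75. Il1b (log2 change 2.45 ± 0.25 (SE), adjusted p = 0.000383), the neutrophil attractant Cxcl1 (log2 change 1.80 ± 0.21 (SE), adjusted p = 0.000904), Bcl3 (log2 change 1.22 ± 0.20 (SE), adjusted p = 0.00447) and Tnfaip3 (log2 change 1.19 ± 0.18 (SE), adjusted p = 0.00271) changed most. In TAMs 13 of the 18 were higher and 2 lower than in Tumor-AM, and 15 and 2 than in Ctrl-AM. The 3 groups went through the same digestion, and the part of digestion in these differences was not tested.

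**Figure D4:**
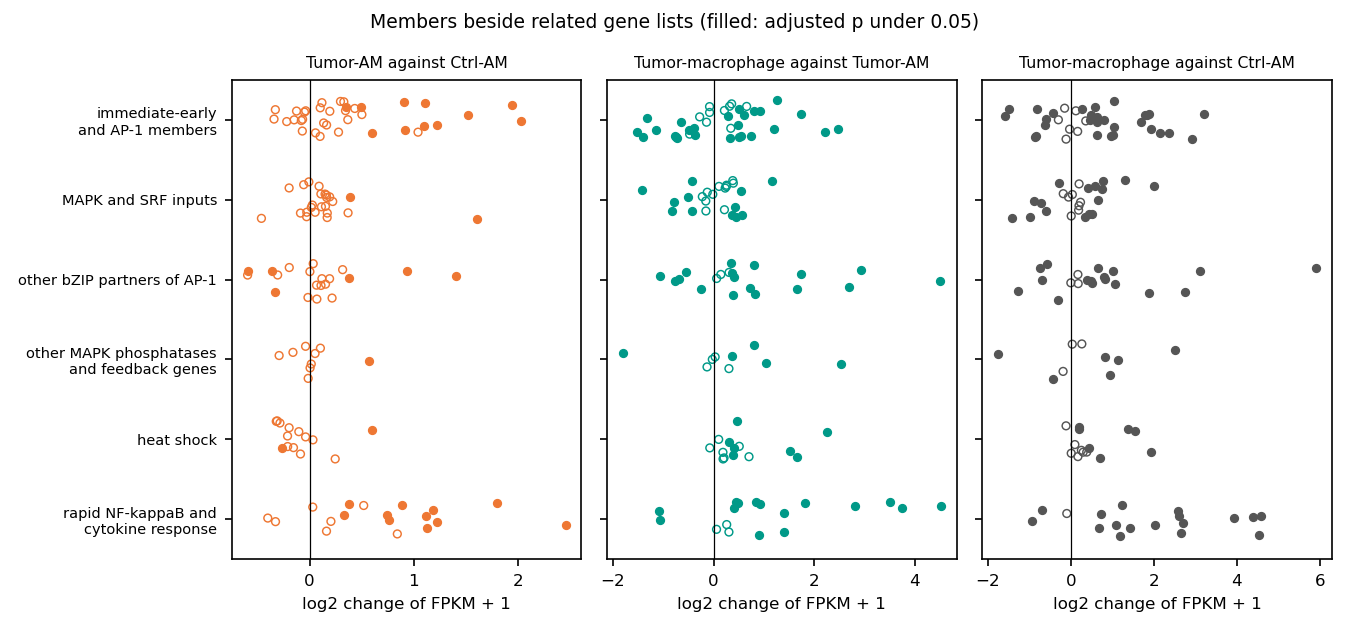
Log2 change of FPKM + 1 for each tested gene of the immediate-early and AP-1 set and of 5 related lists, in 3 comparisons with separate horizontal scales, with filled points past an adjusted p of 0.05. In Tumor-AM against Ctrl-AM the members and the rapid NF-kappaB and cytokine genes have 11 filled points each, all to the right of 0, and the heat shock genes have 2.

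Markers of other cells were read as sums of FPKM. The 7 fibroblast markers, of which 1, 3 and 3 had at least 1 FPKM in every sample of Ctrl-AM, Tumor-AM and Tumor-macrophage, summed to 3.72 to 6.74 in Ctrl-AM, 13.0 to 85.7 in Tumor-AM and 9.84 to 17.1 in Tumor-macrophage. Tumor-AM 3 had the highest fibroblast sum, and without it 9 of the 11 members higher in Tumor-AM kept their call. The lowest Tumor-AM sum, 13.0, was still above every Ctrl-AM sum, so that omission left a fibroblast excess in place and cannot show its part. The 8 T and NK cell markers summed to 8.23 to 11.0, 10.2 to 26.0 and 41.3 to 64.3, the 5 B cell markers to 12.7 to 16.9, 3.15 to 7.49 and 31.5 to 58.3, and the 9 neutrophil markers to 113 to 134, 111 to 165 and 97.6 to 152. The 8 epithelial markers summed to 134 to 270.3 in Ctrl-AM, 76.4 to 134 in Tumor-AM and 42.8 to 91.3 in TAMs, and the 6 endothelial markers to 9.86 to 10.3, 5.32 to 9.42 and 5.61 to 9.67. Ngp was listed at 0 in every Tumor-AM and Tumor-macrophage sample, Camp, another neutrophil granule gene, in every Ctrl-AM and Tumor-macrophage sample, and the B cell factor Pax5 in every Tumor-AM sample. The part of these cells in the changes of the members was not tested. In these bulk samples fewer cells with a transcript and less of it per cell cannot be told apart.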

How the data were processed

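RNA of sorted lung macrophages was analysed in 9 samples, 3 in each of 3 groups taken from the labels. The authors made cDNA with SMART-Seq HT and Nextera libraries, sequenced single-end reads of 75 bases, mapped them to mm10 and deposited FPKM values per gene symbol. The submitters' processing notes name TopHat2 2.1.1, Bowtie2 and Cuffdiff 2.2.1. Gene models, multimapped reads and strandedness are not given in the sources used here. FPKM does not correct for abundant RNAs of 1 population, and FPKM sums ran from 635560 to 785745 per sample.

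Values were analysed as log2(FPKM + 1). Genes with at least 1 FPKM in at least 3 samples went into limma 3.58.1 (R 4.3.3, group means, trended prior variance, all 9 samples), two-sided, with Benjamini-Hochberg adjustment over the 10686 genes and a threshold of 0.05. Nothing else ties samples to animals or days, so p-values measure the spread between these samples. On simulated data for Tumor-AM against Ctrl-AM (10686 genes, 200 changed) the fit recovered 95% of 2-fold and 98% of 4-fold changes, and 7.21% of its calls were false. The noise was drawn for each gene apart, with no shift of a whole library. Changes were planted only in genes above a set level in Ctrl-AM, which Fosl1 did not reach. These rates therefore do not cover library shifts, changes under 2-fold or the lowest genes.

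The members and lists were chosen with earlier results of these data known. Members past the threshold in Tumor-AM, and the 5 largest increases and decreases past it in each other comparison, are given in full, the rest by range or change. From each related list up to 4 called genes with the largest change may be named, and some are not reported here. Of 36 members, 3 share any 75-base stretch with another gene's transcript, at most 1.58% of their length, and 6 overlap a gene on the other strand (Fosl1, Jund, Dusp5, Zfp36l1, Zfp36l2 and Gadd45a). Depth was estimated from ratios of low values and the lengths of 641 single-transcript genes, and covers counting error only. Gene structure and untranslated regions came from GENCODE vM21, 1 transcript per gene, and promoters from RefSeq. Python 3.11.15, NumPy 2.4.6 and Matplotlib 3.10.9 served for these steps and plots. Alternatives covered the pseudocount (0.1), the filter (none, or 5 FPKM), scaling (TPM, median ratios, quantiles), an untrended prior variance, fits of only the 2 groups at hand, a replicate block, and omission of each sample in turn. Leaving out both tumor-bearing libraries numbered 2 was added after seeing the data.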

Additional observations from a re-analysis of the deposited data

How the results depend on the processing

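The number of members past the threshold stayed between 8 and 15 for Tumor-AM against Ctrl-AM, 25 and 30 for Tumor-macrophage against Tumor-AM, and 26 and 30 for Tumor-macrophage against Ctrl-AM over 19 alternatives, and with 1 sample left out it was 8 to 14, 25 to 28 and 27 to 29. Rescaling to TPM brought the median log2 change of all genes to -0.11, -0.085 and -0.22 and that of the members to 0.16, 0.21 and 0.30. It gave 9 higher and 1 lower member in Tumor-AM against Ctrl-AM, where Ier5 passed (adjusted p = 0.0272, limma). Under TPM the log2 change turned negative for Jun (-0.018), Atf3 (-0.0037), Klf10 (-0.036) and Zfp36 (-0.038) in Tumor-AM against Ctrl-AM and for Nr4a1 (-0.067) and Dusp1 (-0.11) in Tumor-macrophage against Ctrl-AM, none of them called before or after. With both tumor-bearing libraries numbered 2 left out, Mafk turned to 0.044 in Tumor-macrophage against Tumor-AM. With 1 sample left out, Jund ran from -0.11 to 0.089 and Egr2 from -0.17 to 0.23 in Tumor-AM against Ctrl-AM, and Fos from -0.28 to 0.042 in Tumor-macrophage against Tumor-AM. The cause was not tested. The sources used here do not say whether samples with the same number came from 1 animal, and the numbers were not taken as pairs. The paper gated AMs and TAMs in the lungs of tumor-bearing mice, so Tumor-AM and Tumor-macrophage samples may share animals. If they do, the p-values of Tumor-macrophage against Tumor-AM treat samples of 1 mouse as independent. Over all genes the deviations of same-numbered samples correlated at -0.062 to 0.16 (Ctrl-AM and Tumor-AM), -0.0085 to 0.049 (Ctrl-AM and Tumor-macrophage) and 0.026 to 0.11 (Tumor-AM and Tumor-macrophage). Each Tumor-AM sample correlated best with the Tumor-macrophage sample of its number, and over the 36 members alone these correlations were 0.45, 0.309 and 0.188, a hint from the data and not from the design. With the replicate block 12, 27 and 28 members passed, against 11, 26 and 29. The block ran over all samples, so it also tied each Ctrl-AM sample to tumor-bearing samples of its number, which came from other mice. A block of Tumor-AM with Tumor-macrophage alone was not fitted. Nr4a3 passed in Tumor-AM against Ctrl-AM (adjusted p = 0.0367) and Fosl2 in Tumor-macrophage against Tumor-AM (0.0375), while Mafk in Tumor-macrophage against Ctrl-AM did not (0.0547). The fit of 2 groups alone brought Fos (0.0419) and Nr4a3 (0.0443) past the threshold in Tumor-AM against Ctrl-AM, and the filter of 5 FPKM brought Mafk (0.0429). Precision was limited by 3 samples a group and, for the lowest members, by depth.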
